A study of Mus musculus with 15 samples.

Results

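The collagen genes of mouse kidney are described here across 4 groups of samples and in each single cell. A gene was a member if a probe set of the array carried its symbol alone and the symbol had the form of a collagen chain, such as Col1a1 or Col4a3. This gave 46 probe sets for 44 genes, out of 19938 genes with a probe set of their own. Only Col6a5 and Col6a6 had 2 probe sets, and the brighter over all 15 arrays was kept. By their known assembly, 11 members are fibrillar, 6 are the basement membrane chains Col4a1 to Col4a6, and 27 belong to other classes.

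The 4 metanephric mesenchyme (MM) cells, numbered 14, 15, 16 and 19, were picked at embryonic day 11.5 from mice carrying Tg(Crym-EGFP)GF82Gsat, a transgene with GFP under Crym regulatory sequence, and their sex is recorded as unknown. The 5 juxtaglomerular (JG) cells, numbered 4 to 8, came from adult male mice with the reporter Ren1c-YFP, although the dissection text of the same samples names Ren1d GFP. JG cells were freed from the tissue with collagenase A and trypsin, and both kinds of cell were picked under a fluorescence microscope with glass needles. Cortex of adult male Ren1c-YFP mice, a mixture of cell types, gave 3 libraries that were diluted and amplified with the single cell protocol (32 rounds, as for the cells) and 3 libraries labelled with a NuGEN kit (1 round), each lettered A, B and C. No strain is specified, no label names an animal, and the reporters mark cells by Crym or renin expression, not by collagen.

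Values are log2 probe set signals as deposited, so 1 unit is a doubling. Each array's background was read from 1205 probe sets of olfactory and vomeronasal receptors, genes of sensory neurons, and the value that 99% of them stay under, taken on each array by itself, is called the receptor line below. A value at or under the line is a bound and not a level. For the MM cells the line lay between 7.13 and 7.56, for the JG cells between 7.55 and 7.93, for diluted cortex between 6.18 and 6.30, and for standard-labelled cortex between 6.30 and 6.52. Marker lists bore on the labels as follows. The renin cell list (7 of 9 genes measured, Ren1 not among them) summed to a linear signal between 4931 and 8917 in each JG cell and between 827 and 984 in each MM cell. Most of the sum in JG cells was Crip1, at 11.96 to 13.01 in JG and 6.74 to 7.93 in MM cells. Of the 7 genes, 1 to 2 were above the line in each JG cell and 1 to 2 in each MM cell, and Rgs2, Adcy5, Adcy6, Gja5 and Aldh1a1 were below it in all 5 JG cells. All 12 proximal tubule markers lay above the line on every cortex array, against 0 to 3 in JG cells and 0 to 2 in MM cells. Six2, a transcription factor of nephron progenitors, was 10.13 in MM cell 16 and between 6.69 and 7.53 in the rest, of which only cell 14 exceeded its line. Crym, the gene whose reporter marked these cells, was above the line in MM cells 14, 15 and 16 (7.27, 7.50 and 8.61) and below it in cell 19 (6.90). Probe sets differ in brightness, so no single gene's level is set against another gene's. Sums over a list and medians over genes join unlike probe sets, and they describe signals and not levels.

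Collagens are secreted proteins whose chains wind around each other into rope-like helices, are trimmed outside the cell and are assembled into larger structures. Fibrillar collagens, with types I and III the main ones of kidney interstitium and vessel walls, form cross-striated fibrils. Type IV collagen forms the sheet-like network of basement membranes. It is built from Col4a1 and Col4a2 in most tissues and from Col4a3, Col4a4 and Col4a5 in the mature filter of the glomerulus. The other classes decorate fibrils (FACITs), form beaded filaments, short networks or anchoring fibrils, span the plasma membrane, or carry sugar chains at basement membranes (multiplexins).

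On any one array, between 17 and 29 of the 44 collagen genes lay above the receptor line, most of them by little. They numbered 22, 25, 25 and 25 in MM cells 14, 15, 16 and 19, where 20.6%, 15.8%, 10.9% and 21.1% of all genes lay above it. In JG cells 4 to 8 the counts were 20, 17, 25, 22 and 21 (9.06%, 6.78%, 9.98%, 10.7% and 14.2% of all genes). Diluted libraries A, B and C had 29, 28 and 25 (50.5%, 48.3% and 48.4%), and the standard-labelled ones 22, 25 and 24 (43.7%, 48.2% and 47.8%). Most of these values were less than 1 unit over the line. In at least 1 array of a group, 29 collagens passed it among MM cells (30.7% of all genes), 27 among JG cells (21.3%), 29 in diluted cortex (52.4%) and 26 in the standard-labelled libraries (50.2%), and 34 did on any of the 15 arrays (61.2%). A total of 20 collagens were above the line in all 4 MM cells (6.57% of all genes were), 14 in all 5 JG cells (3.39%), 24 in all 3 diluted libraries (45.9%) and 21 in all 3 standard-labelled libraries (42.7%). Fibrillar genes made up 8, 7, 5 and 5 of these, in the same order, and basement membrane genes 1, 0, 5 and 4. No collagen was 1 unit or more above the line in all 4 MM cells (2.12% of all genes were), in all 5 JG cells (0.707%) or in all 3 standard-labelled libraries (26.3%), and 3 were in all 3 diluted libraries (31.8%), namely Col1a2, Col4a4 and Col18a1. With the 95th percentile of the receptors as the line, the counts in every array rose to 33, 32, 38 and 38. The share of all genes above that lower line was not taken, so these 4 counts cannot be set beside it. On every array the median of the 44 collagens was above the median of all genes. MM arrays had collagen medians of 7.13 to 7.63, against 6.21 to 6.38 for all genes. JG arrays had 7.53 to 7.80 against 6.42 to 6.46. Whether the receptor line is also the background of collagen probe sets was not tested. The counts above it therefore do not show that collagens were expressed more often than other genes.

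Over the 15 arrays, 10 collagens were above the line on all of them (2.53% of all genes), namely Col1a1, Col1a2, Col3a1, Col27a1, Col6a2, Col7a1, Col9a2, Col9a3, Col18a1 and Col22a1. None was 1 unit or more above it on all 15 (0.406%). Another 10 were above it on none. On at least 1 array, 12 collagens exceeded the line by 1 unit or more, where 45.0% of all genes did. These were 4 fibrillar genes (Col1a1, Col1a2, Col3a1 and Col27a1), 1 basement membrane gene (Col4a4) and 7 others (Col6a2, Col8a1, Col9a1, Col9a2, Col9a3, Col18a1 and Col26a1). The other 32 never did.

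**Figure D1:**
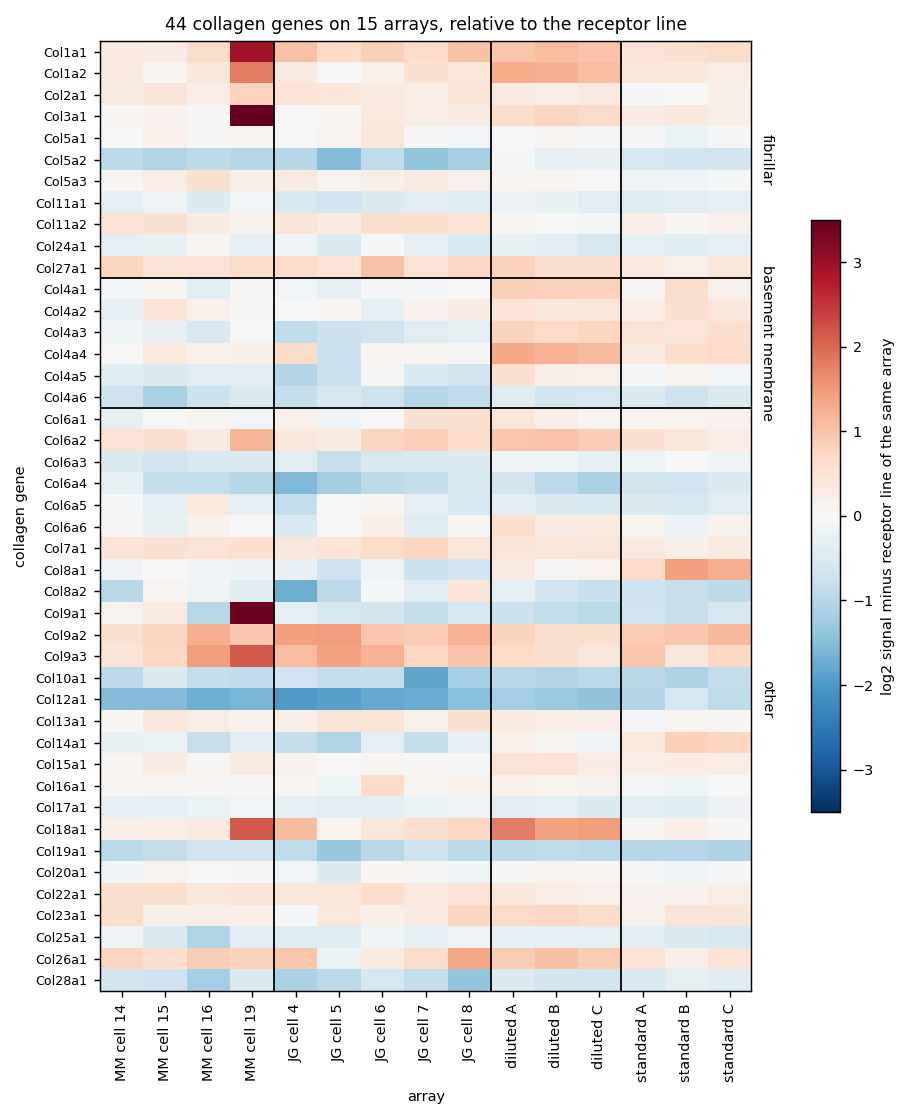
Colour map of 44 collagen genes (rows, by class) on 15 arrays (columns, by group). Colour gives the log2 signal minus the receptor line of the same array, red above and blue below. The darkest red cells are Col3a1, Col9a1 and Col1a1 in MM cell 19, at 3.48, 3.43 and 2.94, and Col4a1 to Col4a5 are red across all 3 diluted cortex libraries.

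The clearest collagen signal in a single cell came from MM cell 19, where Col3a1 lay 3.48 units above the line, Col9a1 3.43, Col1a1 2.94, Col9a3 and Col18a1 2.15 each, Col1a2 1.78 and Col6a2 1.19. Those 7 genes compare with 0, 0 and 2 collagens at 1 unit or more above the line in MM cells 14, 15 and 16, and with 4, 2, 2, 0 and 4 in JG cells 4 to 8. Of all genes, 11.5% passed that mark in cell 19, 11.7%, 7.61% and 3.57% in MM cells 14, 15 and 16, and 2.59%, 1.98%, 2.93%, 4.32% and 3.76% in JG cells 4 to 8. At least 1 MM cell passed it for 8 collagens (18.4% of all genes) and at least 1 JG cell for 6 (7.88%). Diluted libraries had 3, 5 and 3 such collagens (34.6%, 33.3% and 33.3% of all genes) and standard-labelled ones 0, 1 and 2 (26.6%, 30.9% and 30.5%). Col1a1, Col3a1, Col9a1 and Col18a1 also exceeded every other MM cell by 1 unit or more. That is 4 of 44 collagens, beside 4.04% of all genes for the same cell, and it was 0 of 44 in each of the other 8 cells, where the share of all genes ran from 0.306% to 4.04%. These values are those of 1 cell, with no replicate, so they carry no test.

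Promoter windows of the genes that were 1.78 or more above the line in MM cell 19, where a window was found, are shown so that their sequences can be set side by side. Each is the 250 bases before a RefSeq start site on the gene's strand, 5′ to 3′, from assembly GRCm38.p6. Capitals mark matches on either strand to 3 motifs. The first is CCAAT, the box read by the factor NF-Y. The second is the GC box, searched with the letters GGGCGG, which Sp1 proteins read. The third is the TATA box, with the letters TATAAA. No 2 of these matches shared a base in the windows shown. Col1a2 lies at chr6:4505368-4505617 on the plus strand, Col3a1 at chr1:45311288-45311537 on the plus strand, Col9a1 at chr1:24177360-24177609 on the plus strand and Col18a1 at chr10:77166531-77166780 on the minus strand.
Col1a2: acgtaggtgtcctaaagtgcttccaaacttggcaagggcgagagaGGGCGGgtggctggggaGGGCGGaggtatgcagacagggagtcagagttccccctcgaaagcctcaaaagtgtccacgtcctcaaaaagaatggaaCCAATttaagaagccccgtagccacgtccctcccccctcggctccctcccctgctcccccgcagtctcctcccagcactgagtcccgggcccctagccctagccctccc
Col3a1: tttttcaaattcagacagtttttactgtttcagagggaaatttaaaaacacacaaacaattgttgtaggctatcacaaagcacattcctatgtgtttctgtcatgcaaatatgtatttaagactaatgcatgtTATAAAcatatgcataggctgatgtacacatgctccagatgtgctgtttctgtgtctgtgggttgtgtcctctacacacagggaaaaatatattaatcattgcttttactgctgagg
Col9a1: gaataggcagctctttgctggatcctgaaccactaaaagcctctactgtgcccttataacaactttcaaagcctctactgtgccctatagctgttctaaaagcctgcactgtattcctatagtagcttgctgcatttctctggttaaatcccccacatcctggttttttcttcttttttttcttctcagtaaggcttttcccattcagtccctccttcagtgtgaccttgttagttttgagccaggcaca
Col18a1: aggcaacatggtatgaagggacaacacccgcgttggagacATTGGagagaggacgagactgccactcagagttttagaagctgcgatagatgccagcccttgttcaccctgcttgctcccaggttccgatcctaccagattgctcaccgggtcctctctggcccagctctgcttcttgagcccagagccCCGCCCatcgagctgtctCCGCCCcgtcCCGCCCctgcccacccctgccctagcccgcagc
The 4 windows differ in their motifs. Col1a2 held 1 CCAAT and 2 GC boxes, Col18a1 held 1 CCAAT and 3 GC boxes, Col3a1 held a single TATA match starting 117 bases before the start site, and the Col9a1 window held none of the motifs. A second start site of Col9a1 had a CCAAT 18 bases before it, and a second start site of Col18a1 had none of the motifs. Col6a2, the gene of cell 19 nearest to 1 unit, is not printed, and its 2 windows held 3 and 1 GC boxes and neither other motif. GC content was 62% for Col1a2 and for Col18a1, 43.6% for Col9a1 and 35.2% for Col3a1. Windows were found for 35 of the 44 genes (38 windows, Col1a1 and Col9a3 not among them). The CCAAT letters occurred in 13 of the 38 and in 33.8% of 32851 windows of all genes, the GC box in 22 and 32.7%, and the TATA letters in 5 and 12.4%. Median GC content was 59.0% over the collagen windows and 52.4% over all. These matches describe letters and not binding.

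Among the fibrillar genes, values are given in the order of cells 14, 15, 16 and 19 for MM, cells 4 to 8 for JG and libraries A, B and C for cortex, here and below. Col1a1, a chain of type I collagen, read 7.50, 7.70, 8.21 and 10.08 in the MM and 8.76, 8.63, 8.56, 8.33 and 8.59 in the JG cells. In cortex it read 7.16, 7.37 and 7.29 when diluted and 6.98, 6.86 and 6.96 when standard-labelled. MM cell 19 stood 1.87 above the next MM cell, and the 5 JG cells all lay above their lines, at 1.03, 0.70, 0.82, 0.64 and 1.04 over them. Every diluted library was above every standard-labelled one.

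Col1a2, the partner chain of type I collagen, read 7.49, 7.50, 7.95 and 8.91 in the MM and 8.05, 7.94, 7.92, 8.24 and 7.99 in the JG cells. Its cortex values were 7.47, 7.52 and 7.37 when diluted and 6.93, 6.69 and 6.57 when standard-labelled. Cell 19 was again the highest MM cell, while JG cell 5 sat only 0.01 over its line. Over the line, the diluted libraries lay at 1.29, 1.24 and 1.07 and the standard-labelled ones at 0.42, 0.39 and 0.27, without overlap.

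Col3a1, the chain of type III collagen, read 7.22, 7.55, 7.60 and 10.62 in the MM and 7.76, 8.01, 8.11, 7.96 and 7.85 in the JG cells. Cortex libraries gave 6.80, 7.05 and 6.96 when diluted and 6.81, 6.70 and 6.54 when standard-labelled. Only cell 19 was far from its line. The other 8 cells were within 0.37 of theirs, and standard library A lay between the diluted libraries.

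Type V and XI chains, which start and thin fibrils, gave little signal. Col5a1 ranged from 0.24 below to 0.43 above the line and Col5a3 from 0.17 below to 0.55 above. Col5a2 and Col11a1 were below the line on all 15 arrays. Col11a2 read 7.67, 7.94, 7.85 and 7.29 in the MM and 8.17, 8.21, 8.30, 8.30 and 8.05 in the JG cells, and in cortex 6.26, 6.29 and 6.25 when diluted and 6.74, 6.38 and 6.48 when standard-labelled, never more than 0.61 above the line. Col2a1, the main fibril chain of cartilage, read 7.47, 7.85, 7.80 and 7.93 in the MM and 8.20, 8.36, 8.08, 7.94 and 8.03 in the JG cells, and in cortex 6.50, 6.52 and 6.63 when diluted and 6.45, 6.33 and 6.55 when standard-labelled. Its highest excess was 0.79, in MM cell 19. Col27a1 read 7.89, 7.86, 8.08 and 7.77 in the MM and 8.36, 8.40, 8.76, 8.19 and 8.28 in the JG cells, and in cortex 6.98, 6.85 and 6.89 when diluted and 6.86, 6.49 and 6.73 when standard-labelled, where JG cell 6 was the only array 1 unit or more over the line (1.02). Col24a1 exceeded the line on 1 array, MM cell 16, by 0.10.

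Of the basement membrane chains, 5 of 6 were above the line in every diluted library and 4 in every standard-labelled one, but in cells they lay near or under it. Col4a1 and Col4a2 form the network common to most basement membranes. Col4a1 read 7.11, 7.50, 7.18 and 7.18 in the MM and 7.64, 7.59, 7.70, 7.65 and 7.54 in the JG cells, and in cortex 7.01, 7.08 and 7.09 when diluted and 6.63, 6.92 and 6.49 when standard-labelled. It was above the line in MM cells 15 and 19 and in none of the JG cells, and on all 6 cortex arrays. Col4a2 read 6.86, 7.88, 7.73 and 7.17 in the MM and 7.71, 8.01, 7.42, 7.84 and 7.83 in the JG cells, and in cortex 6.65, 6.69 and 6.72 when diluted and 6.77, 6.89 and 6.70 when standard-labelled, above the line in 3 MM cells, 3 JG cells and all cortex libraries. Its ranges in the 2 kinds of cortex overlapped.

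Col4a3, Col4a4 and Col4a5 are chains of the mature glomerular basement membrane. Col4a3 read 7.0, 7.10, 7.03 and 7.13 in the MM and 6.84, 7.18, 7.05, 7.31 and 7.23 in the JG cells, and in cortex 6.96, 6.98 and 7.05 when diluted and 7.01, 6.74 and 6.92 when standard-labelled. No cell was above its line and every cortex library was. Col4a4 read 7.16, 7.78, 7.73 and 7.38 in the MM and 8.37, 7.19, 7.82, 7.80 and 7.51 in the JG cells, and in cortex 7.50, 7.51 and 7.41 when diluted and 6.86, 6.91 and 6.98 when standard-labelled. It was the only type IV chain at 1 unit or more over the line, which it reached in all 3 diluted libraries (1.11 to 1.32) and in no cell. JG cell 4 came nearest among the cells, at 0.64. Col4a5 read 6.73, 6.89, 7.19 and 6.76 in the MM and 6.71, 7.17, 7.78, 7.16 and 6.90 in the JG cells, and in cortex 6.73, 6.53 and 6.48 when diluted and 6.46, 6.42 and 6.22 when standard-labelled, and the single cell above its line was JG cell 6, by 0.04. Col4a6, a chain of the capsule and of embryonic basement membranes, was below the line on every array. Podocyte markers, which mark a source of these chains, were above the line for 4 of 8 genes per diluted library, 5 to 6 per standard-labelled one and 1 to 2 per cell. Endothelial markers were above it for 11 to 12 of 14 in both kinds of cortex and 0 to 4 in a cell. The part of these cell types in the type IV signals was not tested.

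Type VI collagen forms beaded filaments around cells. Col6a1 read 6.87, 7.39, 7.65 and 7.03 in the MM and 7.91, 7.77, 7.76, 8.23 and 8.14 in the JG cells, and in cortex 6.59, 6.53 and 6.39 when diluted and 6.62, 6.43 and 6.46 when standard-labelled. It was above the line in MM cell 16 alone among MM cells and in JG cells 4, 6, 7 and 8. Col6a2 read 7.65, 7.99, 7.86 and 8.32 in the MM and 8.14, 8.25, 8.48, 8.53 and 8.20 in the JG cells, and in cortex 7.16, 7.28 and 7.16 when diluted and 7.04, 6.71 and 6.57 when standard-labelled, above the line on every array, with MM cell 19 as the only one past 1 unit. Col6a6 read 7.19, 7.14, 7.70 and 7.14 in the MM and 7.21, 7.92, 7.97, 7.26 and 7.61 in the JG cells, and in cortex 6.75, 6.58 and 6.64 when diluted and 6.65, 6.09 and 6.45 when standard-labelled. Col6a4 was never above the line, and Col6a3 and Col6a5 were on 1 and 2 arrays. The 2 probe sets of Col6a5 averaged 6.73 and 5.27 and those of Col6a6 7.09 and 5.33.

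The FACITs bind along fibrils. Type IX collagen, best known from cartilage, is built from Col9a1, Col9a2 and Col9a3. Col9a1 read 7.26, 7.71, 6.59 and 10.56 in the MM and 7.39, 7.35, 7.10, 6.86 and 6.95 in the JG cells. The cortex values were 5.44, 5.43 and 5.34 when diluted and 5.83, 5.49 and 5.71 when standard-labelled. Cell 19 was 2.85 above the next MM cell, cell 16 was below its line, and all JG cells and cortex libraries were below their lines. Col9a2 read 7.70, 8.15, 8.80 and 8.09 in the MM and 9.17, 9.39, 8.67, 8.57 and 8.77 in the JG cells. In cortex it read 6.95, 6.82 and 6.90 when diluted and 7.41, 7.23 and 7.43 when standard-labelled. It was over the line everywhere, by 1 unit or more in MM cell 16 (1.24), JG cells 4, 5 and 8 (1.44, 1.46 and 1.21) and standard library C (1.13). Col9a3 read 7.61, 8.13, 9.03 and 9.29 in the MM and 8.81, 9.35, 8.94, 8.42 and 8.56 in the JG cells. Cortex gave 6.88, 6.90 and 6.70 when diluted and 7.50, 6.71 and 7.04 when standard-labelled. MM cells 16 and 19 were both past 1 unit (1.47 and 2.15), as were JG cells 4, 5, 6 and 8. MM cell 16 was past 1 unit in Col9a2 and Col9a3 and below its line in Col9a1.

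Of the remaining FACITs, Col14a1 read 6.88, 7.18, 6.75 and 6.76 in the MM and 6.90, 6.87, 7.40, 6.86 and 7.26 in the JG cells, and in cortex 6.35, 6.39 and 6.14 when diluted and 6.88, 7.13 and 7.06 when standard-labelled. No cell was above the line, and the 3 standard-labelled libraries were all above the 3 diluted ones. Col16a1 read 7.21, 7.50, 7.61 and 7.17 in the MM and 7.83, 7.77, 8.39, 7.80 and 7.72 in the JG cells, and in cortex 6.35, 6.42 and 6.44 when diluted and 6.47, 6.16 and 6.29 when standard-labelled, with JG cell 6 apart from the other JG cells. Col20a1 read 7.03, 7.51, 7.54 and 7.18 in the MM and 7.64, 7.45, 7.81, 7.74 and 7.40 in the JG cells, and in cortex 6.22, 6.40 and 6.39 when diluted and 6.48, 6.15 and 6.26 when standard-labelled, at most 0.11 over the line. Col22a1 read 7.73, 8.02, 7.95 and 7.58 in the MM and 8.16, 8.36, 8.34, 8.05 and 8.05 in the JG cells, and in cortex 6.59, 6.54 and 6.48 when diluted and 6.67, 6.47 and 6.56 when standard-labelled, between 0.16 and 0.62 over the line on all arrays. Col12a1 and Col19a1 were never above it.

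The multiplexins Col15a1 and Col18a1 sit at basement membranes of vessels and epithelia, and the end of Col18a1 is the source of endostatin. Col15a1 read 7.25, 7.68, 7.65 and 7.45 in the MM and 7.89, 7.91, 7.83, 7.77 and 7.48 in the JG cells, and in cortex 6.68, 6.79 and 6.57 when diluted and 6.77, 6.58 and 6.56 when standard-labelled, never more than 0.50 over the line. Col18a1 read 7.35, 7.67, 7.87 and 9.29 in the MM and 8.84, 8.05, 8.13, 8.27 and 8.27 in the JG cells. For cortex the values were 7.97, 7.69 and 7.77 when diluted and 6.61, 6.53 and 6.34 when standard-labelled. MM cell 19 was 1.41 above the next MM cell, JG cell 4 was 1.11 over its line, and the diluted libraries were 1.79, 1.40 and 1.47 over the line while no standard-labelled one was more than 0.23 over it.

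Among the last classes, Col8a1, a short-chain collagen of vessel walls, read 6.97, 7.39, 7.44 and 6.92 in the MM and 7.44, 7.22, 7.61, 6.94 and 6.88 in the JG cells, and in cortex 6.51, 6.24 and 6.41 when diluted and 7.20, 7.73 and 7.57 when standard-labelled. Standard-labelled cortex was over the line in all 3 libraries (0.68 to 1.42), diluted cortex in 2 and no cell was. Col8a2 and Col10a1 passed the line on 2 arrays and on none. Col7a1, the anchoring fibril chain of skin, read 7.64, 7.92, 8.05 and 7.71 in the MM and 8.12, 8.42, 8.39, 8.46 and 7.99 in the JG cells, and in cortex 6.64, 6.70 and 6.73 when diluted and 6.85, 6.54 and 6.65 when standard-labelled, 0.23 to 0.76 over the line.

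Of the transmembrane collagens, Col13a1 read 7.22, 7.80, 7.81 and 7.29 in the MM and 7.97, 8.39, 8.21, 7.88 and 8.10 in the JG cells, and in cortex 6.53, 6.55 and 6.53 when diluted and 6.44, 6.36 and 6.34 when standard-labelled. Col23a1 read 7.77, 7.61, 7.78 and 7.36 in the MM and 7.67, 8.31, 7.97, 8.0 and 8.30 in the JG cells, and in cortex 6.88, 7.01 and 6.94 when diluted and 6.67, 6.74 and 6.75 when standard-labelled. Both stayed within 0.74 of the line where they exceeded it, and Col17a1 and Col25a1 never did. The unclassed Col26a1 read 7.91, 7.98, 8.42 and 7.94 in the MM and 8.71, 7.73, 8.09, 8.33 and 8.92 in the JG cells, and in cortex 7.07, 7.33 and 7.18 when diluted and 7.03, 6.54 and 6.80 when standard-labelled, with JG cell 8 at 1.36 and diluted library B at 1.04 over the line, and JG cell 5 below it. Col28a1 was below the line on every array.

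**Figure D2:**
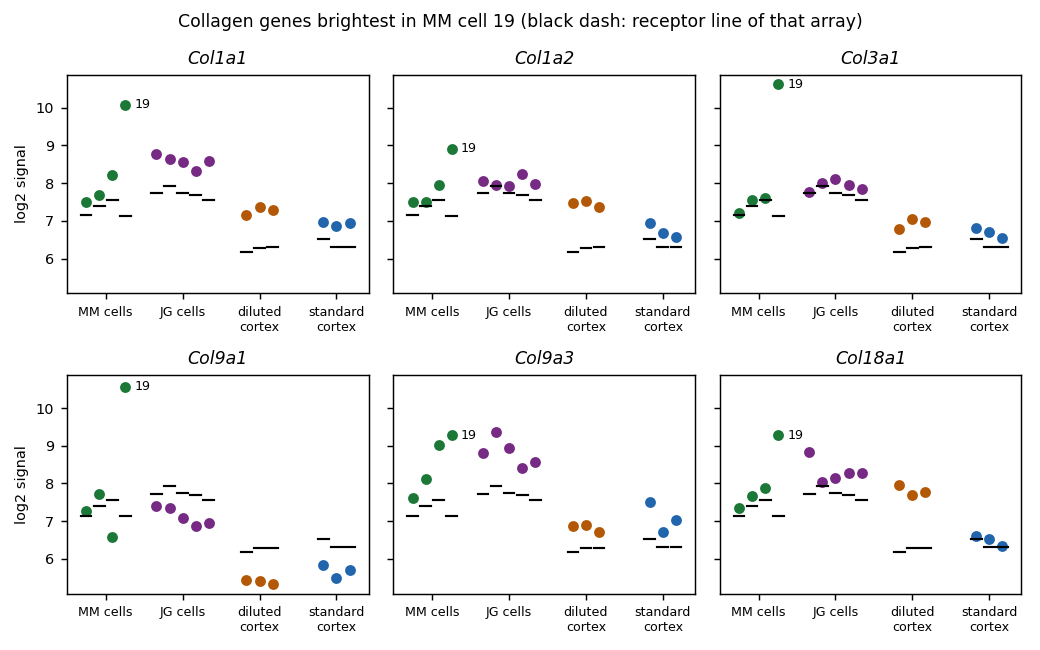
Log2 signal (vertical axis, shared by all panels) of 6 collagen genes in each of 15 samples, by group, as 1 point per sample. The black dash beside a point is that array's receptor line. MM cell 19, labelled, is the highest MM cell in all 6 panels, at 10.08 for Col1a1, 8.91 for Col1a2, 10.62 for Col3a1, 10.56 for Col9a1 and 9.29 for both Col9a3 and Col18a1.

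The list of 52 genes that modify, cut, bind or degrade collagen holds 48 measured genes. For chain modification and folding, 2 to 7 of 19 were above the line in an MM cell and 2 to 5 in a JG cell. For cleavage and crosslinking these counts were 0 to 4 and 0 to 2 of 11, for receptors 0 to 1 and 0 of 8, and for degradation 1 to 2 and 0 to 2 of 10. Ppib, a prolyl isomerase of procollagen folding, and Serpinh1, a collagen chaperone, were above the line in all 9 cells, at 11.56 to 13.28 and 8.17 to 9.33. Other genes were high in single cells, and those named here were chosen after their values were seen. In MM cell 19, Pcolce, an enhancer of the enzyme that trims fibrillar procollagen, read 12.13 against at most 8.13 in any other MM cell. Sparc, which binds collagen, read 11.31 there against 6.66 to 7.26, and P3h4, a partner of collagen prolyl and lysyl hydroxylation, 10.77 against 6.25 to 7.71. P4hb, the common subunit of prolyl 4-hydroxylase and a disulfide isomerase, read 10.49, 7.20, 7.21 and 11.78 over MM cells 14, 15, 16 and 19. Of the 19 chain modification and folding genes, 7 were above the line in MM cell 14 and 6 in cell 19. Among all genes these shares were 20.6% and 21.1%. MM cell 14 had 0 collagens at 1 unit or more above the line, yet read 10.36 for Sec23a, 8.84 for Crtap, 8.74 for Colgalt1 and 8.47 for P4ha1. In JG cells such signals fell in cells 4, 6, 7 and 8, with Crtap and Sparc both high in cell 7. P4hb read 12.20 in cell 8 and at most 7.88 elsewhere, Crtap 11.57 in cell 7 and at most 7.0 elsewhere, and Sparc 11.70 in cell 7 and at most 7.02 elsewhere. Timp3, an inhibitor of metalloproteinases held in the matrix, read 12.55 in cell 4 and at most 6.72 elsewhere, and Timp2 read 12.52 in cell 6 and at most 6.93 elsewhere. No JG cell, with or without 1 of these high machinery signals, had a fibrillar collagen more than 1.04 over its line.

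Marker lists of other cells were read in MM cell 19 too, and the genes named from them were chosen after their values were seen. Its kidney stroma progenitor list (8 of 9 genes measured) had 3 genes above the line and a summed linear signal of 4429, against 1 to 2 genes and 856 to 2696 in the other MM cells. Foxd1, the defining stromal factor, read 11.33 there, against 9.03, 6.60 and 6.35 in cells 14, 15 and 16, and Ecm1 read 10.30 against 6.53 to 7.23. The median of the stroma list was 6.76 in cell 19, against 6.72, 6.51 and 6.44 in cells 14, 15 and 16. Pdgfra, also on that list, was below the line in cell 19 (6.74). Its cap mesenchyme list had 3 of 12 genes above the line and summed to 1573, against 3 to 6 genes and 1732 to 3028 in the others. Contractile smooth muscle markers summed to 7228 with 3 of 12 above the line, against 0 to 1 and 1174 to 3990, with Myl9 at 11.80 (6.19 to 6.30 in the others) and Des at 11.39 (11.45 in cell 15). The median of that list was 6.76 in cell 19, against 6.48, 6.75 and 6.50 in cells 14, 15 and 16. Pericyte and mesangium markers summed to 1743 with 4 of 10 above, against 1 to 3 and 1144 to 1176, with Gata3 at 9.41. The proximal tubule list summed to 3849 with 1 of 12 above, Gpx3 (11.57), against 0 to 2 and 1083 to 1378. Its interstitial fibroblast list had 3 of 13 above the line and summed to 1824, against 1 to 3 and 1211 to 3557. Postn read 9.34 in cell 19, while Dcn (5.23) and Lum (4.25) were below the line. The part of these markers in the collagen values was not tested.

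JG cells were compared with diluted cortex, which was amplified with the single cell protocol as the cells were. The receptors themselves were 1.02 higher in JG cells, and each difference of means is given beyond that shift. In all 3 comparisons with cells the signals are taken as read, so a difference is not one of levels where a group lay under its lines. Of 44 collagens, 1 was higher by 1 unit or more beyond the shift, and 0 were lower, where 0.587% of all genes were higher and 40.8% lower. The 1 was Col9a2, at 8.91 ± 0.35 (SD, n = 5) in JG cells and 6.89 ± 0.07 (SD, n = 3) in diluted cortex, 1.00 beyond the shift and so at the edge of the rule. Col9a3 (0.97) and Col11a2 (0.91) fell just short of it. In JG cell 5, which had the highest Col9a2, the proximal tubule list summed to a linear signal of 12778, against 1064 to 1331 in the other JG cells, with 3 of 12 markers above the line, and its part in the result was not tested. Over the classes, the median difference beyond the shift was 0.47 for fibrillar, -0.46 for basement membrane and 0.36 for other collagens, beside -0.46 for all genes. Col4a4 was at -0.76, with 3 of 5 JG cells above the line. Col4a3 was under the line in all 5 JG cells and at 7.0 ± 0.05 (SD, n = 3) in diluted cortex. Within the machinery list, 22 of 48 genes were lower and 0 higher. The largest differences were those of P4hb (-5.74), Timp3 (-4.97), Pcolce (-4.32) and Crtap (-4.17). P4hb, Timp3 and Crtap were each high in 1 JG cell, at 12.20, 12.55 and 11.57. Diluted cortex read 12.03 to 12.24, 11.44 to 11.57 and 10.51 to 10.68 for them. Pcolce read 7.37 to 7.97 in JG cells and 10.77 to 11.05 in diluted cortex.

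Cortex is a mixture, so fewer cells of a type and less RNA per cell cannot be told apart in it, and the cells of a group count as 1 sample, so these comparisons have no test. The ranges of JG cells and diluted cortex did not overlap for 41 collagens, where they did not for 79.1% of all genes, before any shift is taken off. The count of higher collagens depended on scaling. It was 14 with arrays centred on their medians and no receptor shift (6.86% of all genes) and 32 after quantile normalization (12%), and 0 without JG cell 4, 5 or 8, and 0 with group medians. It was 2 without JG cell 7 (Col9a2 and Col9a3). Without diluted library B the 1 gene was Col9a3, and without JG cells 4 and 5 together, an alternative added after the values were seen, it was Col8a2.

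MM cells against diluted cortex gave a like picture. The receptors were 0.81 higher in MM cells. Of the collagens, 1 was higher beyond that shift and 0 were lower (0.787% and 36.9% of all genes). The 1 was Col9a1, at 8.03 ± 1.75 (SD, n = 4) against 5.40 ± 0.05 (SD, n = 3), 1.81 beyond the shift. All 3 diluted values were under the line, as was MM cell 16. With the lines in place of the diluted values alone, the difference was 0.96 beyond the shift, short of the rule and no lower bound. As read it was 1.28 with group medians. The call rested on cell 19. Without that cell Col9a1 was 0.93 beyond the shift, 0 collagens were higher and 1, Col18a1, was lower, while without cell 14 both Col9a1 and Col9a3 were higher. Col9a3 was 0.87 beyond the shift and Col4a4 -0.77. Medians beyond the shift were 0.31 for fibrillar, -0.57 for basement membrane and 0.15 for other collagens, beside -0.40 for all genes. The count of higher collagens was 4 with arrays centred on their medians (2.95% of all genes) and 25 after quantile normalization (7.43%). Of the machinery, 21 of 48 were lower and 0 higher, with Timp3 (-6.25), Crtap (-4.50), P3h2 (-3.81) and P4hb (-3.81) farthest.

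Between MM and JG cells the receptors were 0.21 lower in MM cells. Only Col9a1 was higher in MM cells by the rule, at 1.11 beyond the shift as read, and no collagen was lower (10.8% and 0.732% of all genes). All 5 JG cells were under the line for it, as was MM cell 16. With the lines in place of the JG values alone, the Col9a1 difference was 0.51 beyond the shift, again short of the rule and no lower bound. Its ranges in the 2 kinds of cell overlapped, from 6.59 up to 10.56 for MM and from 6.86 up to 7.39 for JG. Without MM cell 19, with group medians or after quantile normalization the count of higher collagens was 0, and after quantile normalization 5 were lower (Col1a1, Col27a1, Col6a1, Col9a2 and Col9a3), where 3.57% of all genes were. Col3a1, at 8.25 ± 1.59 (SD, n = 4) against 7.93 ± 0.14 (SD, n = 5), was 0.53 beyond the shift. The median over collagens was -0.08, beside 0.02 for all genes. Of the machinery, 5 of 48 were higher and 1 lower in MM cells. The largest were Itgb1, the beta subunit of the collagen-binding integrins, at 3.31 beyond the shift, then P4hb (1.94), Sec23a of the coat that exports procollagen (1.80) and, lower, Timp3 (-1.28). JG cell 4 alone carried the Timp3 signal. These ranges overlapped too. Itgb1 read 6.26 in MM cell 16 and up to 7.56 in a JG cell, and P4hb was highest in JG cell 8. Sec23a read 10.36, 6.37, 6.18 and 8.34 over the MM cells and 5.74 to 6.66 in JG cells.

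**Figure D3:**
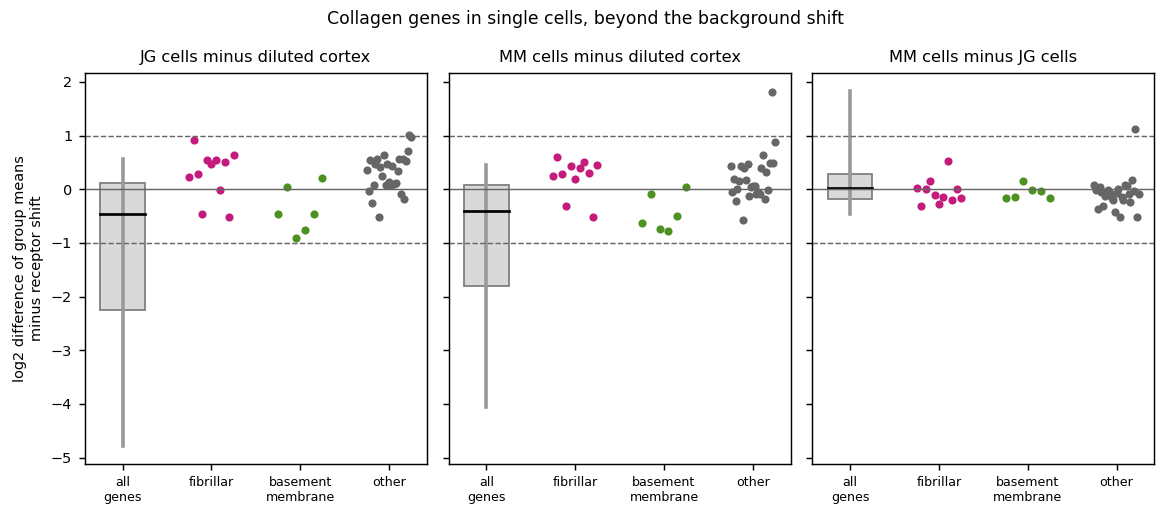
Difference of group means minus the receptor shift (log2, vertical axis) in 3 comparisons. Each point is a collagen gene, by class, and the box at the left gives all 19938 genes, with the median as a black line, quartiles as the box and the 5th to 95th percentile as the grey line. Dashed lines mark 1 unit either way, and 1 collagen lies at or past them in each panel.

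By median SD, collagens varied slightly more among MM cells than among JG cells, and less than all genes in both. The median SD over the 44 genes was 0.26 for MM cells (all genes 0.33), 0.22 for JG cells (0.33), 0.07 for the diluted libraries (0.11) and 0.15 for the standard-labelled ones (0.13). Col9a1 had the largest SD among MM cells (1.75), with 3 collagens at 1 unit or more (Col1a1, Col3a1 and Col9a1). MM cell 19 was the highest MM cell for each of them. Col8a2 had the largest among JG cells (0.77) and Col9a3 in standard-labelled cortex (0.39).

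The 2 ways of labelling cortex were compared with limma, on the 19531 probe sets whose mean, in whichever group was brighter, was at least the median probe set. Of the 44 collagens, 37 were tested and 13 passed a Benjamini-Hochberg adjusted p of 0.05, 9 of them higher in diluted cortex and 4 lower. Of all probe sets tested, 74.7% passed, 38% higher and 36.7% lower. Fibrillar genes had 3 higher and 0 lower of 11 tested, basement membrane genes 2 and 0 of 5, and the others 4 and 4 of 21. The median log2 fold change was 0.11 for fibrillar, 0.22 for basement membrane and 0.01 for other collagens, beside -0.00 for all probe sets tested, and the receptors shifted by -0.03. Nothing says that libraries came from separate animals, so the p-values measure the spread between these libraries, which may be technical.

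Col18a1 was 1.31 (SE 0.11) higher in diluted cortex on the log2 scale, with limma's adjusted p at 1.57e-05. Col1a2 was 0.72 (SE 0.11, adjusted p = 0.000526) higher and its partner Col1a1 0.35 (SE 0.09, adjusted p = 0.00995). Col3a1, at 0.25 (SE 0.11, adjusted p = 0.0701), did not pass. Of the type IV chains, Col4a4 was 0.56 (SE 0.08, adjusted p = 0.000452) and Col4a1 0.38 (SE 0.12, adjusted p = 0.0198) higher, while Col4a2 (-0.10), Col4a3 (0.11) and Col4a5 (0.22) did not pass. Col6a2 (0.43), Col26a1 (0.40), Col5a2 (0.33) and Col23a1 (0.22) were the other higher genes. Lower in diluted cortex were Col8a1, by 1.12 (SE 0.15, adjusted p = 0.000212), Col14a1, by 0.73 (SE 0.11, adjusted p = 0.000417), Col9a2, by 0.47 (SE 0.09, adjusted p = 0.00208) and Col28a1, by 0.29 (SE 0.08, adjusted p = 0.0119). Col5a2 and Col28a1 were called although both lay below the receptor line on all 15 arrays.

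The calls of Col18a1, Col1a1, Col1a2, Col4a4, Col8a1, Col14a1 and Col9a2 held under all 12 alternatives. Those of Col23a1, Col26a1, Col28a1, Col4a1, Col5a2 and Col6a2 were lost under at least 1, and none changed sign. Leaving out single libraries moved the count of higher collagens to 5 without standard B, 4 without standard C, 5 without diluted C and 6 without diluted B. Of all probe sets tested, 36.1%, 35.6%, 35.0% and 37.1% were higher in these 4 settings. The count of lower collagens moved to 7 without standard B, where 35.8% of all probe sets tested were lower. Markers of other cells moved as well. Per library, 6 to 8 of 13 fibroblast markers were above the line after dilution and 3 to 4 after standard labelling, with summed signals of 1175 to 1554 and 1107 to 1796. Of all genes, 48.3% to 50.5% and 43.7% to 48.2% were above it. Diluted libraries had summed endothelial signals between 5454 and 5826 and the standard-labelled ones between 2805 and 3532, and for contractile smooth muscle the ranges were 1955 to 4189 and 1117 to 2002. Members moved both ways. By limma's adjusted p, 7 of 14 endothelial markers were higher and 5 lower in diluted cortex, and 3 and 3 of 10 tested for smooth muscle, whose median log2 fold change was -0.24. For fibroblasts 3 were higher and 1 lower of 9 tested, with a median log2 fold change of 0.01. Their part in the collagen differences was not tested.

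**Figure D4:**
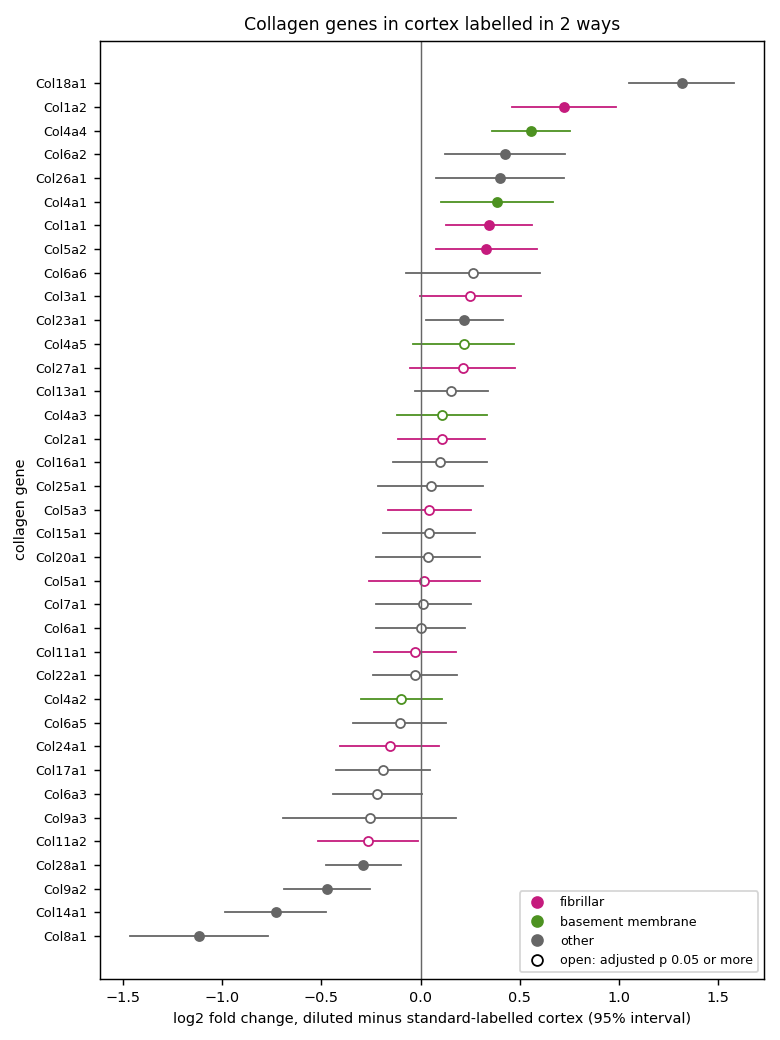
Log2 fold change of 37 tested collagen genes, diluted minus standard-labelled cortex (horizontal axis), with 95% intervals from limma over 3 libraries each. Filled points passed the adjusted p of 0.05 and open points did not. Col18a1 lies farthest to the right, at 1.31, and Col8a1 farthest to the left, at -1.12.

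Between the labellings, machinery genes were called in both directions, at a share near that of all probe sets. Of 48 measured genes 36 were tested, with 17 higher and 9 lower in diluted cortex, beside 38% and 36.7% of all probe sets tested. Mia3, which loads procollagen for export, fell by 2.26 (SE 0.13, adjusted p = 1.44e-06), and Pcolce was 2.25 (SE 0.16, adjusted p = 5.05e-06) higher. Crtap, a partner of the prolyl 3-hydroxylases, was 2.19 (SE 0.09, adjusted p = 2.91e-07) higher, and P3h2, one of those hydroxylases, fell by 2.15 (SE 0.10, adjusted p = 4.00e-07). By role, chain modification and folding had 11 higher and 3 lower of 18 tested, cleavage and crosslinking 4 and 3 of 8, collagen receptors 1 and 3 of 5, and degradation 1 and 0 of 5.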

How the data were processed

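RNA of 9 single cells and 6 cortex libraries of mouse kidney was measured on 15 Affymetrix gene arrays. The values the authors deposited are signals per probe set on the log2 scale, and they were used unchanged. The submitters' processing notes name Affymetrix Expression Console. Its version and how it summarised or normalized the probes were not given in the sources used here. The platform annotation lists 23410 of 35557 probe sets, 21789 with 1 gene symbol, 1621 with several and 12147 unlisted. It names no genome build, and only promoter windows carry coordinates. All 44 collagen symbols were the same in the RefSeq gene table (GRCm38.p6).

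Members, gene lists and alternatives were chosen with earlier results of these data known. Every collagen could be named. Values in every sample are given for collagens above the receptor line in every library of a cortex group, or 1 unit or more above it in a cell. Up to 4 machinery genes with the largest called difference were named per comparison, and markers as checks of the labels. Other machinery genes and markers named for single cells were chosen after their values were seen.

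Groups of cells have no named animals, so each counts as 1 sample without a test. Cortex was tested with limma 3.58.1 (lmFit, eBayes) in R 4.3.3 and Benjamini-Hochberg adjustment at 0.05 over all probe sets entered. On simulated data with known changes the limma step was checked. Python 3.11.15 (pandas 2.3.3, numpy 2.4.6, scipy 1.17.1) gave the other values and matplotlib 3.10.9 the plots. An array has no count depth, so the number of arrays limits the precision. No 2 arrays correlated above 0.995. Alternatives changed the scaling, the filter, the probe set of a gene, the means, the background percentile, the replicate block and the samples left out.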

Additional observations from a re-analysis of the deposited data

Results flagged for a closer look

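A gap test was run on the 4 MM cells and on the 5 JG cells for each of the 44 collagens, which is 88 groups, and marked 5 values whose gap to the nearest other cell filled most of the group's range. Chance marks about 1 in 20 such groups, here 4.4 of 88, so the number marked is near the number chance gives. Col3a1 was marked in MM cell 19, at 10.62 where the next MM cell read 7.60. Col26a1 (8.42, next 7.98) and Col6a6 (7.70, next 7.19) were marked in MM cell 16, whose receptor line was the highest of the MM cells. Over the line, Col26a1 was at 0.76, 0.58, 0.86 and 0.81 in cells 14, 15, 16 and 19, so cell 16 was not apart from the others on that scale. Among JG cells, Col16a1 was marked in cell 6 (8.39, next 7.83) and Col18a1 in cell 4 (8.84, next 8.27). Relative to the receptor line, Col3a1 was 3.48 above it, Col18a1 1.11, Col16a1 0.66 and Col6a6 0.14.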

How the results depend on the processing

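For JG cells against diluted cortex, the count of higher collagens (1) became 32 after quantile normalization, 14 with arrays centred on their medians and 0 with group medians, and ran from 0 to 2 with a sample left out, while the count of lower ones stayed 0. The median beyond the shift (0.26) became 1.49 and 0.78 under the first and second of these. For MM cells against diluted cortex the higher count (1) became 25 and 4, and ran from 0 to 2 with a sample left out, the lower count (0) from 0 to 1, and the median (0.16) became 1.10 and 0.60. For MM against JG cells, quantile normalization gave 0 higher, 5 lower and a median of -0.42 in place of -0.08, group medians gave 0 higher, and leaving out a sample gave 0 to 1 higher. With the 95th percentile as the line, collagens above it in every array numbered 33 (MM), 32 (JG), 38 (diluted) and 38 (standard-labelled), with no share of all genes taken at that line. The cause of these shifts was not tested. In cortex, leaving out a library gave 4 to 10 higher and 3 to 7 lower collagens, in place of 9 and 4. Of all probe sets tested, 35.0% to 37.7% were then higher and 34.0% to 35.9% lower. Without the filter all 44 collagens were tested, and 8 were higher and 6 lower, beside 21.6% and 28.7% of all probe sets. Same-letter libraries deviated together with correlations of 0.16 (A), 0.15 (B) and 0.03 (C) over probe sets, and diluted C correlated more with standard B (0.05) than with its own letter. Libraries of different letters among A and B gave -0.18 and -0.12. Since C fell short of 0.1, pairing by letter was not established, and the data do not show that it is absent. With the letter as a replicate block, 7 collagens were higher and 4 lower, beside 38.2% and 36.7% of all probe sets tested. The calls of Col23a1 and Col26a1 were then lost (adjusted p = 0.0570 and 0.0600, limma). No call of a cortex collagen changed sign. Array brightness near the receptor line limits most of these values.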
